A study of Oryza sativa with 24 samples.

Results

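The late plateau genes of the rice panicle were 200 of 36099 gene identifiers. Their transcripts were lower while pollen mother cells formed and divided than while pollen filled and matured, with the late stages within 2-fold of each other. They were chosen by their own counts. Levels are CPM, a gene's count scaled by the total of its library, so that 15986 CPM is 1.60% of the counts. For each gene, the mean CPM at each of stages 5 to 8 was taken over both genotypes, with 0.5 added. A gene was eligible if the lower of its stage 7 and stage 8 means was at least 5, if these 2 means lay within 2-fold of each other, and if the late/early ratio was at least 2. The late/early ratio is the lower of the stage 7 and 8 means over the higher of the stage 5 and 6 means. Of 15657 genes that met the level, 14010 were within 2-fold and 882 of these met the ratio. The 200 with the highest ratio are described here, and the other 682 eligible genes stand beside them for comparison. The values that chose the genes are given as a description, with no test of stages.

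The study set tps2/tps3/tps6 triple gene-edited plants (MT) beside unedited wild-type plants (WT), both of the indica rice cultivar IR64 and raised in pots in growth chambers. Young panicles were taken at stage 5, when pollen mother cells form, stage 6, at meiosis, stage 7, when pollen fills, and stage 8, when it matures, with 3 labelled biological replicates per genotype and stage. All groups thus share the cultivar, and the number of independently edited lines behind the MT plants is not given in the labels. Of the 276 pairs of columns, 3 pairs held the same value in every row under an MT and a WT label (stage 6 replicate 3, stage 7 replicates 2 and 3). Any other pair differed in at least 23573 rows. These 3 libraries, called shared here, count once in the stage means and in no genotype comparison. That left 21 distinct libraries, 18 of them of resolved genotype, with 3 per genotype at stages 5 and 8, 2 at stage 6 and 1 at stage 7. Total counts of the 21 libraries ran from 11398861 to 15860931.

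In the rice anther, the tapetum, the innermost layer of the anther wall, feeds the microspores after meiosis and then degenerates. Young pollen later divides, takes up sugar and stores starch, and many transcripts of mature pollen are used only when the pollen tube grows. Class II trehalose phosphate synthases, the family named in the title of the series, resemble the enzymes that make trehalose 6-phosphate, a signal of sucrose status in plants. A panicle also holds glumes, pistil and stalk, so a panicle library mixes these tissues with anthers. In such bulk libraries, fewer cells of a type and less RNA per cell cannot be told apart.

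The files do not pair the identifiers with gene names, and 0 of the 36099 identifiers, hence 0 of the 200, matched the 39387 genes of the RefSeq table of another rice assembly (ASM3414082v1). Genes are therefore given by identifier and without a role. The lists of tapetum, meiocyte, pollen and green-tissue markers matched no gene, so the tissue labels and the edited genes were not checked. No sequence is shown for the same reason.

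Together the 200 genes were a small part of the transcriptome early and a visible one late. At stage 5 they took 0.0482%, 0.0364% and 0.0365% of the counts in MT replicates 1 to 3, and 0.0519%, 0.0515% and 0.05% in WT replicates 1 to 3. At stage 6 the shares were 0.17% and 0.219% in MT, 0.104% in the shared library, and 0.138% and 0.207% in WT. Stage 6 was thus uneven among replicates, and the shared library, lowest of the 5 for 108 of the 200 genes (54%, against 16.6% of the 15657 genes at the level), stood below all resolved ones. At stage 7 the share was 1.46% in the MT library, 1.14% and 1.17% in the shared libraries and 1.98% in the WT library. At stage 8 it was 1.60%, 1.28% and 1.70% in MT replicates 1 to 3, and 1.96%, 2.07% and 2.03% in WT replicates 1 to 3. The 10 most abundant of the 200 genes held 32.2% to 40.5% of this sum in the stage 8 libraries.

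**Figure D1:**
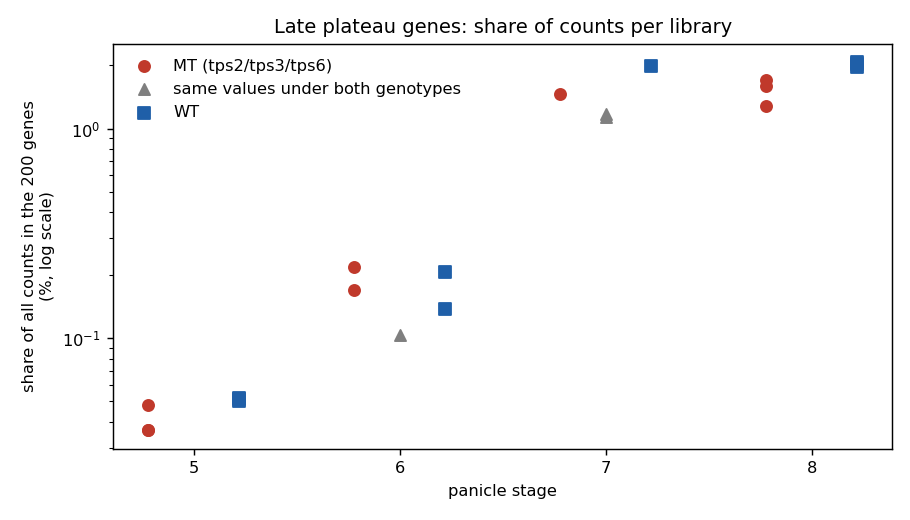
Share of all counts that fell in the 200 late plateau genes (vertical axis, %, log scale) by panicle stage (horizontal axis), 1 point per library, for MT, for libraries with the same values under both genotypes, and for WT. At stage 8 the 3 MT libraries (1.28% to 1.70%) lie below the 3 WT libraries (1.96% to 2.07%).

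Most of the genes were near the detection limit at stage 5. Their median stage mean was 0.635 CPM at stage 5, 2.74 CPM at stage 6, 28.2 CPM at stage 7 and 34.8 CPM at stage 8. The stage 5 mean was under 1 CPM for 116 genes and the stage 6 mean for 49, and 13 genes had no count in any of the 6 stage 5 libraries. None of the 200 was without a count in all stage 5 and 6 libraries, so each had left at least 1 read before pollen filling. In 176 genes every stage 7 and 8 library lay above every stage 5 and 6 library. The means of these same libraries chose the genes, so this count only describes the choice. The share among other genes was not computed. The late/early ratio had a median of 7.00 and a range of 5.00 to 43.9, with 45 genes at 10 or more and 11 at 20 or more. Among the 682 other eligible genes the median was 2.67.

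OsIR64_10g0007640 had the highest late/early ratio, 43.9. It had no count in the 3 MT libraries of stage 5, and 0, 0 and 0.173 CPM in the WT ones. At stage 6 it had 0.567 and 0.228 CPM in MT, 0.255 CPM in the shared library, and 0.153 and 0.229 CPM in WT. It was thus nearly silent up to meiosis in each library. At stage 7 it stood at 22.6 CPM in MT, 24.2 and 17.4 CPM in the shared libraries and 71.8 CPM in WT. Its stage 8 values were 31.8, 37.9 and 71.1 CPM in MT, against 93.7, 104.4 and 50.2 CPM in WT. The stage 8 groups overlapped, and MT replicate 3 was the high MT library. Without the WT stage 7 library the late stages of this gene were more than 2-fold apart, so it was let in by that library.

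OsIR64_01g0000760 was the second, with a ratio of 39.5. Its stage means were 0.804 CPM at stage 5, 2.65 CPM at stage 6, 123.7 CPM at stage 7 and 225.4 CPM at stage 8. At stage 8 it had 143.8, 193.2 and 172.0 CPM in MT, against 267.0, 346.1 and 230.2 CPM in WT, and here the groups did not overlap. Its stage 7 values were 158.7 CPM in MT, 94.1 and 66.9 CPM in the shared libraries and 175.3 CPM in WT. Without the WT stage 7 library its late stages too were more than 2-fold apart, so its stage 8 gap is not independent of its choice. At the other end, OsIR64_05g0005970 was the last gene kept, with a ratio of 5.00 and stage means of 13.1, 64.2, 323.1 and 361.7 CPM at stages 5 to 8. OsIR64_11g0000810, with 4.96 and means of 0.043, 0.771, 5.80 and 6.13 CPM, was the first left out.

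CPM does not correct for gene length, which the files do not give, so levels are compared within a gene. By CPM, OsIR64_02g0025340 had the highest late mean, with stage means of 20.3, 119.1, 908.9 and 1306.1 CPM at stages 5 to 8. OsIR64_07g0026440 followed, with 1279.3 CPM at stage 7 and 765.3 CPM at stage 8. It also had the highest stage 6 over stage 5 ratio of the 200 (197), having no count at stage 5 and a mean of 98.1 CPM at stage 6. Its stage 6 level was uneven, at 99.7 and 164.2 CPM in MT, 13.9 CPM in the shared library, and 126.0 and 86.5 CPM in WT. The late mean was over 100 CPM for 47 genes and under 10 CPM for 31.

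The genes differed in the stage 6 over stage 5 ratio, taken with 0.5 CPM added to each mean. By this ratio stage 6 was at least 2-fold above stage 5 in 122 genes, at least 4-fold in 48, and within 2-fold in 78. The added 0.5 CPM shrinks the ratio of a low gene. OsIR64_10g0007640 rose from a mean of 0.0288 CPM at stage 5 to 0.2866 CPM at stage 6. Yet its ratio was 1.49, so it counted among the 78. The split thus mixes level with timing, and timing apart from level was not tested. The 122 genes had median stage means of 4.69 CPM at stage 6 and 45.2 CPM at stage 7, and the 78 had 0.976 CPM and 12.4 CPM. The median late/early ratio was close in both sets, 6.96 and 7.17. Only 4 of the 200 had a lower mean at stage 6 than at stage 5. Among them, OsIR64_04g0008040 had the lowest stage 6 over stage 5 ratio, 0.703, with means of 1.91 CPM at stage 5, 1.19 CPM at stage 6, 22.8 CPM at stage 7 and 35.4 CPM at stage 8.

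**Figure D2:**
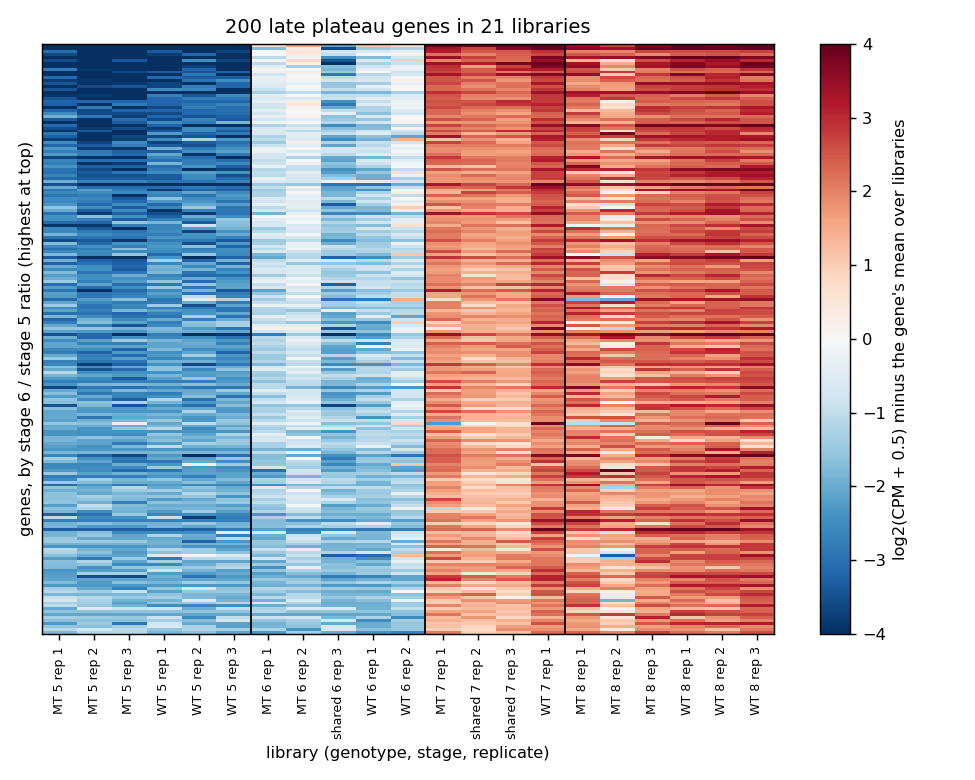
The 200 genes (rows, ordered by the stage 6 over stage 5 ratio, highest at the top) in the 21 distinct libraries (columns, by stage, then MT, shared, WT), coloured by log2(CPM + 0.5) minus the gene's mean over libraries. Values beyond 4 either way take the end colours. The change from blue to red falls between stages 6 and 7, and MT replicate 2 is the palest column at stage 8.

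By its median, the stage 8 over stage 7 ratio was closer to 1 within each genotype than in the pooled means. Pooled, the median was 1.27, and the ratio was above 1 in 156 genes and below 1 in 44. In 70 genes the 2 stages were within 1.2-fold. Within the resolved libraries the median was 1.06 in MT (3 stage 8 libraries over 1 of stage 7) and 1.06 in WT (likewise). The pooled stage 7 mean includes the shared libraries, whose shares were the lowest of the 4. The ratio was within 2-fold in 182 of the 200 genes in MT and in 197 in WT. In MT, 13 genes were more than 2-fold higher at stage 8 and 5 more than 2-fold lower, and in WT the numbers were 2 and 1.

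The extremes of the pooled ratio show the room the 2-fold bound leaves. OsIR64_05g0018210 had the highest, just within the bound, with 60.7 CPM in MT, 45.5 and 53.2 CPM in the shared libraries and 79.9 CPM in WT at stage 7. Stage 8 values were 150.7, 124.2 and 106.7 CPM in MT, against 116.1, 113.3 and 109.8 CPM in WT. All stage 8 libraries lay above all stage 7 libraries. OsIR64_01g0027620 had the lowest, 0.562, with 19.7 CPM in MT, 20.1 and 29.6 CPM in the shared libraries and 43.1 CPM in WT at stage 7. At stage 8 it had 18.6, 8.90 and 12.2 CPM in MT, against 16.7, 19.3 and 17.8 CPM in WT. Here all stage 8 libraries lay below all stage 7 libraries.

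**Figure D3:**
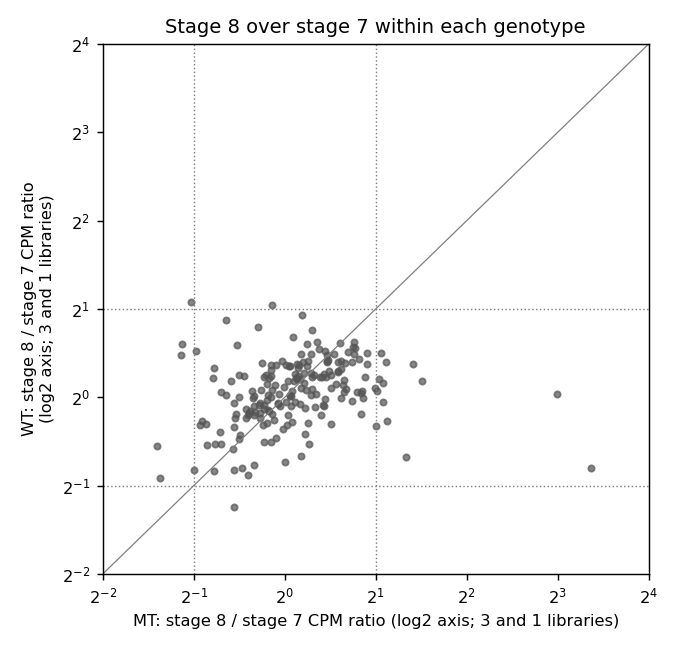
Ratio of the stage 8 mean to the stage 7 value (CPM, 0.5 added to each) of the 200 genes in MT (horizontal) and WT (vertical), on log2 axes, each from 3 stage 8 libraries and 1 stage 7 library. Dotted lines mark 2-fold. In MT 182 genes and in WT 197 genes lie between them.

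The median ratio of stage 6 over stage 5 was 3.07 in MT and 2.22 in WT, and that of stage 7 over stage 6 was 6.84 in MT and 10.5 in WT. These ratios rest on 2 stage 6 libraries and 1 stage 7 library per genotype and were not tested. The stage 6 genotype difference turned direction when 1 library was left out (median log2 difference -0.083 to 0.63). Applied to the MT libraries alone, the 3 thresholds kept 176 of the 200 genes, and applied to the WT libraries alone 195. Without the WT stage 7 library 150 of the 200 stayed eligible, so that library, on which the 10.5 in WT also rests, decided 50 of them.

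The genotype difference was not part of the rule, and at stages 5 and 8 the stage means held 3 MT and 3 WT libraries each. At stages 6 and 7 they also held the shared libraries, and the WT stage 7 library decided 50 of the genes. The stage 7 difference is therefore not independent of the choice. These 50 genes also count in every stage 8 sum, count and median of the 200 given below. Genes let in by a high WT value may be high in WT at stage 8 too, and the stage 8 difference without them was not computed. Counts of all genes were fitted together (edgeR quasi-likelihood test, Benjamini-Hochberg adjustment over 25483 genes, threshold 0.05), and all 200 late plateau genes were among those tested. Replicates are biological as labelled, and p-values measure the spread between these libraries.

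At stage 8, when pollen matures, the genes as a body were lower in MT, though no single one passed the threshold. The summed level was 15986, 12842 and 16995 CPM in MT replicates 1 to 3, against 19621, 20679 and 20311 CPM in WT. The mean was 15274 ± 2166 CPM in MT and 20204 ± 537 CPM in WT (SD, n = 3 each), a ratio of 0.756. On TMM-normalized library sizes (a scaling by the bulk of genes) the ratio was 0.708, and under both scalings the 3 MT libraries lay below the 3 WT libraries. The log2 fold change was below 0 for 178 of the 200 genes (89%), against 48.9% of all genes tested, with a median of -0.59 against 0.00 over all genes. The 682 other eligible genes had a median of -0.49 and a ratio of sums of 0.754, so a lower late level in MT was shared by genes with a lower late/early ratio.

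For 54 of the 200 genes (27%) the 3 MT libraries all lay below the 3 WT libraries at stage 8, and for 0 all above. Over all genes tested these shares were 5.7% below and 8.73% above, and over the other eligible genes 20.5% and 1.32%. Log2 fold changes of the 54 ran from -2.49 to -0.28, with a median of -0.84. The edgeR test called 0 of the 200 genes, against 0.00785% of all genes (2 genes), and the lowest adjusted p among the 200 was 0.16. At an unadjusted p under 0.05 there were 33 lower genes (16.5%), against 7.05% of all genes, and 0 higher ones, against 6.94%. DESeq2 called 1 of the 200, lower in MT, against 1.11% of all genes called lower. That gene, OsIR64_01g0012780, was singled out after its values were seen. It had 107.1, 99.7 and 121.2 CPM in MT, against 174.2, 176.9 and 186.9 CPM in WT (log2 fold change -0.81, DESeq2 adjusted p = 0.00328, edgeR adjusted p = 0.184). Its groups did not overlap at stage 8, and its late/early ratio was the third highest. At stage 7 it had 91.8 CPM in MT, 61.0 and 44.9 CPM in the shared libraries and 140.3 CPM in WT. Without the WT stage 7 library its late stages were more than 2-fold apart, so its stage 8 gap is not independent of its choice.

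The MT replicates at stage 8 were uneven, and 1 of them decided the calls. MT replicate 2 was the lowest of the 6 stage 8 libraries for 139 of the 200 genes (69.5%), against 29.0% of the 15657 genes at 5 CPM or more in both late stages. MT replicate 3 was the highest MT library for 101 (50.5%), against 38.5% of the 15657 genes. Without MT replicate 3 the edgeR test called 22 of the 200 genes (11%), 22 lower and 0 higher in MT, while it called 4.58% of all genes lower and 3.35% higher. Without MT replicate 2 the median log2 fold change was -0.42, and 169 genes were still below 0. The median SD of log2 CPM among stage 8 replicates was 0.55 in MT and 0.25 in WT for the 200 genes, and 0.51 in MT and 0.32 in WT for all genes tested. The part of this spread in the genotype difference was not tested.

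**Figure D4:**
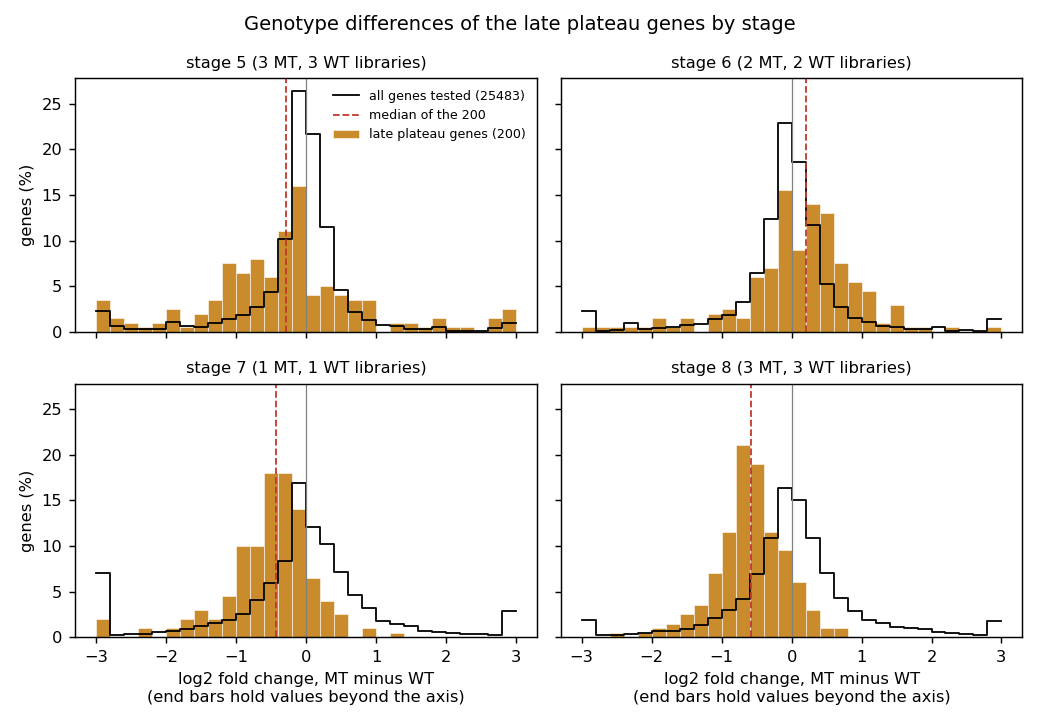
Distribution of log2 fold changes (MT minus WT) at each stage for the 200 late plateau genes (bars, % of genes) and all 25483 genes tested (line), with the median of the 200 dashed. End bars hold values beyond the axis. The median is -0.28, 0.21, -0.43 and -0.59 at stages 5 to 8.

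OsIR64_05g0027460 had the lowest p at stage 8 among the genes lower in MT. It had 42.1, 32.6 and 74.3 CPM in MT replicates 1 to 3, against 89.8, 93.8 and 90.7 CPM in WT. All MT values lay below all WT values, by little in replicate 3. The log2 fold change was -0.98 (SE 0.28) at an edgeR adjusted p of 0.163, and without MT replicate 3 it was -1.36 (edgeR adjusted p = 0.00717). At stage 7 the gene had 33.0 CPM in the MT library, 26.5 and 22.02 CPM in the shared libraries, and 74.1 CPM in the WT library. Without the WT stage 7 library its late stages were more than 2-fold apart. The gene was thus let in by that library, and its stage 7 and 8 gaps are not independent of its choice. At stage 5 it had 4.08 ± 1.81 CPM in MT and 4.25 ± 0.804 CPM in WT (SD, n = 3 each), a difference within their spread.

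OsIR64_03g0038070 had the lowest p among the genes higher in MT at stage 8, with 93.4, 60.1 and 58.1 CPM in MT, against 46.1, 59.5 and 41.8 CPM in WT. The groups overlapped, and the fold change was 0.42 in log2 units (SE 0.28) at an edgeR adjusted p of 0.514. At stage 5 it had 3, 3 and 0 counts in MT replicates 1 to 3, against 14, 7 and 16 counts in WT. At stage 5 the MT counts all lay below the WT counts. Among the 200 it had the lowest p for a stage 8 difference above the stage 5 difference, with a gap of 2.97 in log2 units (SE 0.66) and an edgeR adjusted p of 0.684. Without MT stage 8 replicate 3 that test passed the threshold (log2 change 3.11, edgeR adjusted p = 0.0336).

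At stage 5, where most of the genes had few counts, the difference leaned the same way. The summed level was 482, 364 and 365 CPM in MT replicates 1 to 3, against 519, 515 and 500 CPM in WT, a ratio of means of 0.79, and the groups did not overlap. The fold change was below 0 for 129 genes (64.5%), against 48.7% of all genes, and above 0 for 58, with the remaining 13 without counts. The median was -0.28, and without MT stage 5 replicate 1 it was -0.63. For single genes the MT libraries all lay below WT in 15 (7.5%), against 6.31% of all genes, and all above in 9 (4.5%), against 8.15%. The 15 are near that background. The edgeR test called 0 of the 200, against 0% of all genes. At an unadjusted p under 0.05, 21 were lower (10.5%), against 2.86% of all genes, and 6 were higher, against 1.56%. DESeq2 called 2 of the 200, both lower, against 0.0649% of all genes called lower and 0.015% called higher.

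OsIR64_08g0008380 had the lowest p of the lower genes at stage 5, on 1, 0 and 0 counts in MT against 6, 6 and 3 counts in WT. The ratio of the summed counts per depth was 0.0673, with an exact 95% counting interval of 0.0016 to 0.437 (counting error only). The edgeR adjusted p was 0.531. At stage 8 it had 19.3 ± 2.46 CPM in MT and 21.6 ± 1.63 CPM in WT (SD, n = 3 each), a gap within the spread. OsIR64_09g0009760 had the lowest p of the higher genes, with 1.59, 1.58 and 1.48 CPM in MT against 0.951, 0.0833 and 0.605 CPM in WT (log2 fold change 1.49, SE 0.51, edgeR adjusted p = 0.999). Its groups did not overlap, on at most 19 counts per library.

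Over stages 5 and 8 together, 161 of the 200 genes (80.5%) had a fitted mean difference below 0, against 49.9% of all genes, with a median of -0.45. The edgeR test called 0 of the 200, against 0.051% of all genes (13 genes, 0.0353% lower and 0.0157% higher). Unadjusted, 41 were lower (20.5%), against 6.83% of all genes, and 2 were higher, against 5.02%. OsIR64_06g0002160 came closest, with 0.670, 0.526 and 1.31 CPM in MT at stage 5 against 2.77, 2.08 and 4.58 CPM in WT. Its stage 8 levels were 48.1, 48.4 and 96.8 CPM in MT, against 90.1, 107.7 and 103.4 CPM in WT. It was lower in all 3 MT libraries at stage 5, while at stage 8 MT replicate 3 lay among the WT values. Its mean fold change over both stages was -1.32 in log2 units (SE 0.27) at an edgeR adjusted p of 0.118, and it passed without MT stage 8 replicate 3 (edgeR adjusted p = 0.0048) and in DESeq2 (adjusted p = 0.00166). DESeq2 called 7 of the 200, all lower in MT, against 0.869% of all genes called lower and 0.362% called higher.

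OsIR64_09g0009760 had the lowest p of the genes higher in MT over both stages (log2 fold change 0.80, SE 0.32, edgeR adjusted p = 0.346). A test of the stage 8 difference minus the stage 5 difference (the interaction) called 0 of the 200, against 0% of all genes, with 12 lower and 9 higher at an unadjusted p under 0.05 (3.09% and 3.65% of all genes). OsIR64_06g0007570 had the lowest p for a difference that was lower at stage 8. It had 5.58, 3.66 and 8.88 CPM in MT at stage 8, against 19.1, 16.9 and 20.7 CPM in WT, and 1.03 ± 0.259 CPM in MT and 0.539 ± 0.242 CPM in WT at stage 5 (SD, n = 3 each). The stage 8 groups did not overlap. Its interaction was -2.67 in log2 units (SE 0.84), with an edgeR adjusted p of 0.685.

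**Figure D5:**
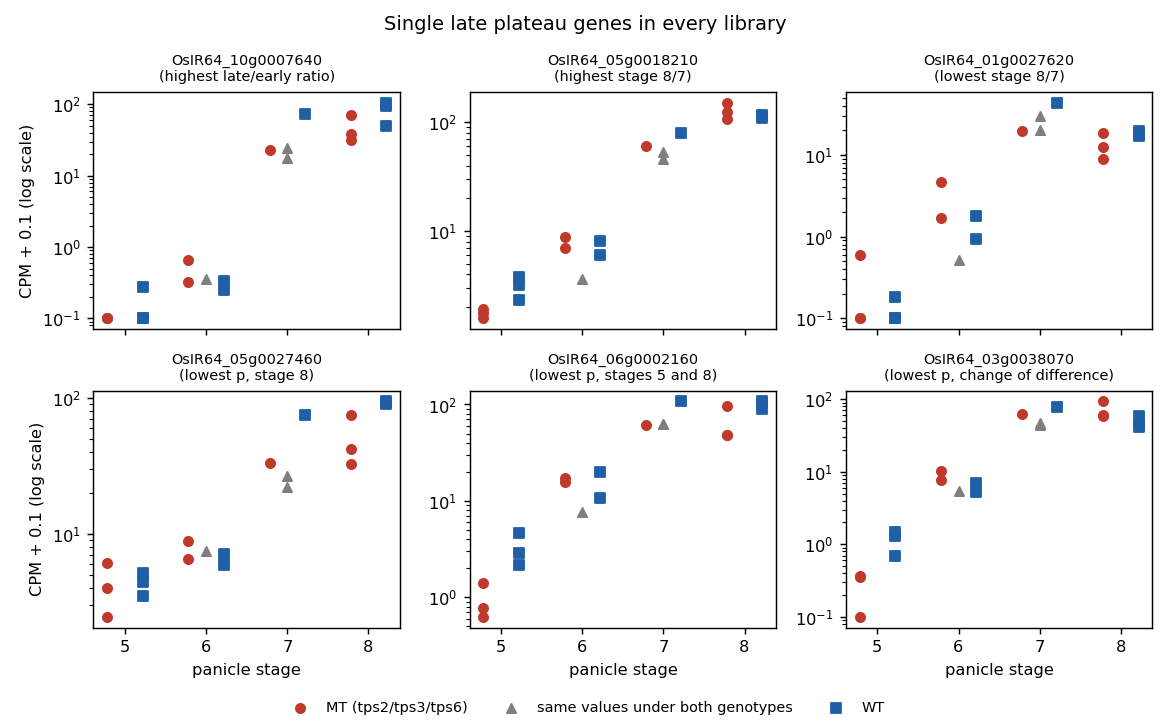
CPM (0.1 added, log scale) of 6 late plateau genes by panicle stage, 1 point per library, for MT, for libraries with the same values under both genotypes, and for WT. The genes are those of highest late/early ratio, highest and lowest stage 8 over stage 7 ratio, and lowest p for a lower level in MT at stage 8, over stages 5 and 8, and for a change of the genotype difference. In OsIR64_05g0027460 the MT values at stage 8 (32.6 to 74.3 CPM) lie below the WT values (89.8 to 93.8 CPM). Without the WT stage 7 library the late stages of this gene lie more than 2-fold apart.

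At stage 7, when pollen fills, the single MT library had the lower level for 169 of the 200 genes (84.5%). The share was 74% among the other eligible genes and 46.8% among all genes. The WT library entered the stage 7 mean that chose the genes, so this count is not independent of the choice. By fitted fold change 171 of the 200 were below 0, with a median of -0.43, and the summed level was 14551 CPM in MT and 19845 CPM in WT. The shared libraries, with 11415 and 11670 CPM, lay below both. The WT library was the highest of the 4 for 160 genes (80%), against 26.9% of the 15657 genes at 5 CPM or more in both late stages. This count too is not independent of the choice. The comparison has no replicates at this stage, its spread comes from other groups, and the edgeR test called 0 of the 200, against 0.00392% of all genes (1 gene). Unadjusted, 6 were lower, against 3.92% of all genes, and 0 higher, against 3.47%. DESeq2 called 1 of the 200, lower in MT, against 0.243% of all genes called lower. That gene, OsIR64_01g0040270, again singled out after its values were seen, had 0.475 CPM in MT, 4.01 and 6.58 CPM in the shared libraries and 68.2 CPM in WT (DESeq2 adjusted p = 0.0284, edgeR adjusted p = 0.516). Its stage 8 values were 1.78, 1.997 and 24.9 CPM in MT, against 23.1, 70.1 and 23.5 CPM in WT. It thus met the 5 CPM level at stage 7 through the WT library, and at stage 8 MT replicate 3 stood far above the other MT libraries.

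OsIR64_02g0033500 had the lowest p of the lower genes at stage 7, with 0.317 CPM (4 counts) in MT against 12.1 CPM (148 counts) in WT (log2 fold change -5.22, SE 1.61, edgeR adjusted p = 0.48). Stage 8 levels were 4.31, 1.83 and 11.8 CPM in MT, against 9.26, 10.1 and 17.99 CPM in WT, and the groups overlapped. With 1.89 and 3.88 CPM in the shared libraries, this gene too met the 5 CPM level at stage 7 through the WT library, so its stage 7 gap was part of how it was chosen. OsIR64_11g0012900 had the lowest p of the higher genes, with 14.4 CPM in MT against 5.63 CPM in WT (log2 fold change 1.35, SE 0.83, edgeR adjusted p = 0.76).

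At stage 6, at meiosis, the genes leaned the other way, by less than the libraries varied. The summed level was 1699 and 2190 CPM in MT, against 1376 and 2070 CPM in WT. The groups overlapped, and the ratio of means was 1.13. The fold change was above 0 in 119 genes and below 0 in 81 (40.5%), against 50.6% of all genes below 0. The median was 0.21, and leaving out 1 library moved it between -0.083 and 0.63, so the direction turned. Both MT libraries lay above both WT libraries in 53 genes (26.5%), against 20.7% of all genes, and below in 9, against 11.4%. The edgeR test called 0 of the 200, against 0% of all genes, with 7 higher and 2 lower at an unadjusted p under 0.05 (1.02% and 1.94% of all genes), and DESeq2 called 0, against 0.0101% of all genes in either direction alone. OsIR64_06g0003860 had the lowest p of the higher genes, with 58.7 and 78.7 CPM in MT against 41.6 and 44.7 CPM in WT (log2 fold change 0.59, SE 0.22, edgeR adjusted p = 1). OsIR64_01g0031190 had the lowest p of the lower genes, on 0 and 3 counts in MT against 5 and 11 counts in WT, a ratio of 0.169 with an exact 95% counting interval of 0.0315 to 0.59 (edgeR adjusted p = 1).

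The lower stage 8 level in MT was spread over the kinds of gene within the 200. With 0.5 CPM added, 122 genes were at least 2-fold higher at stage 6 than at stage 5. Their median log2 fold change at stage 8 was -0.58, against -0.61 in the other 78. It was -0.58 in the 47 genes over 100 CPM and -0.63 in the 31 under 10 CPM. The 156 genes with a higher mean at stage 8 than at stage 7 had -0.58, and the other 44 had -0.61. At stage 8 the sets of each pair differed by less than 0.1 in median. At stage 7, with 1 library per genotype, they differed more, with -0.47 in the 156 genes against -0.26 in the 44, and -0.42 in the genes over 100 CPM against -0.29 in those under 10 CPM.

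The genes also varied together among replicates, which the stage means did not use. Over the 16 libraries of groups with replicates, the deviations of log2 CPM from the group mean had a mean pairwise correlation of 0.134 among the 200 genes, 0.143 among the other eligible genes and 0.003 among all genes tested. Without the 3 MT stage 8 libraries the values over 13 libraries were 0.104, 0.131 and 0.002. TMM scaling balances the bulk of genes within each library, so the value over all genes tends to be small. The value of the 200 was not above that of the other eligible genes. All pairs share the same libraries and their depth, so this is a description. The median biological coefficient of variation was 36.1% for the 200 and 30.1% for all genes tested.

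The 200 genes were spread over the table. The field of the identifier before the letter g ran from 1 to 12, with a further field Un, and each numbered field held some of the 200, from 35 in field 1 to 4 in field 8. Per 100 genes at 5 CPM or more in both late stages, field 8 held 0.386 and the other numbered fields 1.06 to 1.77, while field Un held 0 of 3 such genes. Whether this field is the chromosome was not checked against an annotation. Only 3 pairs of the 200 stood on adjacent rows and 8 pairs at most 5 rows apart, so long runs of neighbouring identifiers were not seen. How reads shared by near-identical genes were treated is not given in the labels, so the counts of such pairs are uncertain.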

How the data were processed

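The authors deposited whole-number counts per gene in 24 columns. STAR placed trimmed reads on an IR64 genome and HTSeq-count assigned them to high-confidence gene models, per the series design text. Trimmomatic 0.39 and kallisto are also listed, per the submitters' processing notes. Strand setting, annotation version and kallisto's role are not given in the labels.

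CPM was the count over the column total. The genes, lists, tests and rules for naming genes were chosen with earlier results of these data known. Genotype tests used 18 libraries, without the 3 identical pairs. edgeR 4.0.16 in R 4.3.3 (TMM, filterByExpr, glmQLFit robust, glmQLFTest) fitted 8 groups with 10 residual degrees of freedom, with each lone stage 7 library taken to vary as other groups do. Standard errors were derived from the fold change and its F statistic. The procedure was tested on simulated counts. Alternatives were RLE, no filter, DESeq2 1.42.0, all 24 columns, only the libraries compared, a replicate block and leaving out each library.

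Genes named were those of highest late/early ratio (2), highest late mean (2), nearest the last rank (2), at the extremes of stage 8 over stage 7 and of stage 6 over stage 5, and, where a genotype contrast called none of the 200, the lowest p each way. OsIR64_01g0012780 and OsIR64_01g0040270 fall outside this rule and were named after their DESeq2 calls were seen. Identifiers are not paired with names, so few are printed.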

Additional observations from a re-analysis of the deposited data

How the results depend on the processing

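No single gene of the 200 was called between the genotypes in the fit of 18 libraries. RLE size factors, no low-count filter, all 24 columns and fits of only the libraries compared (not possible for stage 7) likewise called 0 in each comparison. The fits of only the libraries compared filtered out part of the 200, leaving 17 higher and 72 lower at stage 5, and 105 higher and 64 lower at stage 6. With all 24 columns the shared libraries stand under both genotypes, which shrinks the stage 6 and 7 differences in advance. The stage 7 median was then -0.20 instead of -0.43, so the lack of calls there says little. DESeq2 called 2, 0, 1 and 1 of the 200 at stages 5 to 8 and 7 over stages 5 and 8, all lower in MT. A replicate block called 1, OsIR64_06g0002160 over stages 5 and 8 (edgeR adjusted p = 0.0414, against 0.0196% of all genes called lower), and changed no other call. Deviations of same-numbered MT and WT libraries correlated across genes at only 0.012 to 0.058, and not every library correlated best with its own number, so the numbers were not taken to pair libraries. Leaving out 1 library gave 0 to 22 genes at stage 8, 0 to 8 over stages 5 and 8 and 0 to 3 for the change of the difference, with the highest value each time without MT stage 8 replicate 3 (all genes called there: 7.93%, 2.8% and 0.964%). Without MT stage 5 replicate 1, 1 gene was called over stages 5 and 8. The median log2 difference ranged from -0.63 to -0.21 at stage 5, from -0.083 (without MT stage 6 replicate 2) to 0.63 (without WT stage 6 replicate 2) at stage 6 and from -0.73 to -0.42 at stage 8 when 1 library was left out. Without MT stage 5 replicate 1 it was -0.63 at stage 5. For the change of the difference it ranged from -0.41 to 0.039 (without MT stage 5 replicate 1), so its direction turned. Of the 200 genes, 115 were chosen again from WT libraries alone, 139 from MT libraries alone, 146 without the shared libraries, 173 with all 24 columns, 177 on TMM-normalized sizes, 184 and 186 with 0.1 and 1 CPM added, and 150 to 200 when 1 library was left out (150 without the WT stage 7 library). The causes were not tested. At stage 5, where the median of the 200 was 0.635 CPM, few counts limit what a difference can show.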
